A study of Mus musculus with 2 samples.

Results

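Bcl11a, Sox6, Zbtb7a, Myb, Hbs1l, Chd4 and Mbd2 are 7 genes tied to the repression of early-stage hemoglobin in maturing red cells, among 21938 protein-coding genes of the GENCODE M21 annotation. They were taken by name, and every peak interval that overlapped a gene body or the 50 kb on either side of it was collected. Each interval was placed as promoter (within 1 kb of any annotated start site of the gene), intragenic or outside. Each gene was found in the annotation, and none was lost to a filter. The chromatin was that of erythroblasts, the red cell precursors that still have a nucleus, profiled by ATAC-seq, in which a transposase cuts accessible DNA and leaves sequencing adapters there.

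The series held 1 group with 2 biological replicates: primary erythroblasts of male C57BL/6J mice, 5 to 6 weeks old, with 50000 cells per library. Both replicates carry the same donor identifier, and the sources used here do not say whether they are separate animals. No other genotype, treatment or stage was measured, so the values below are descriptions with their spread over the replicates, and no test between conditions was possible. The label of replicate 2 names 2 instrument models and that of replicate 1 none, and what the instrument contributes cannot be told apart from the rest of the variation between libraries. Depth is unknown, since the lists carry no counts of reads.

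Bcl11a is a zinc finger repressor that silences human fetal globin genes and mouse embryonic globin genes, and Sox6, a high-mobility-group factor, acts beside it in definitive red cells. Zbtb7a (also called LRF) is a further zinc finger repressor of fetal globin genes. Chd4 is the ATP-driven remodeler and Mbd2 a methyl-CpG reader of NuRD, a complex that joins remodeling to histone deacetylation. Myb is a transcription factor of proliferating progenitors, and Hbs1l, its neighbor, encodes a GTPase of ribosome rescue that is not known as a globin repressor; the stretch between them is known in humans for its link to fetal hemoglobin levels. Erythroid enhancers are commonly marked by GATAA, the core bound by GATA factors such as Gata1.

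The sequences below are the accessible cores that carry the main findings away from start sites: every thresholded intron site of Bcl11a, the intron site of highest enrichment and the most 3′ intron site of Sox6, the intron site of Chd4, and the sites of highest enrichment outside Myb and Hbs1l. Each is the plus strand of GRCm38.p6 (mm10), 201 bases centered on the strongest summit, credited to RefSeq. Capitals mark GATAA on either strand, so that TTATC is a match on the minus strand. Distances are from the 5′ end of the gene, positive in its direction of transcription, and Sox6 and Myb are transcribed from the minus strand.

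Bcl11a +52 kb, chr11:24129959-24130159: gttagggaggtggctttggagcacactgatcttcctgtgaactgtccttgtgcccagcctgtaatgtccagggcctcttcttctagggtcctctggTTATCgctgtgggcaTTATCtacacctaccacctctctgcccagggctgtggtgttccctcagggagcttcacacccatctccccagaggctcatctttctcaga

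Bcl11a +58.2 kb, chr11:24136172-24136372: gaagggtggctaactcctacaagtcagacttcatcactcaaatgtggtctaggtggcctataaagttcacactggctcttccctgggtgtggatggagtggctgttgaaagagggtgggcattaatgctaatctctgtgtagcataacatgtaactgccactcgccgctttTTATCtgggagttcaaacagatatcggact

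Bcl11a +69.9 kb, chr11:24147808-24148008: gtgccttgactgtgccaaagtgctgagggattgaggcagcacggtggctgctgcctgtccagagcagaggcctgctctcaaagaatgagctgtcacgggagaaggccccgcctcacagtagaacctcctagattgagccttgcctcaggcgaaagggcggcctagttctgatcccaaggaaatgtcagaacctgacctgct

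Sox6 +96.8 kb, chr7:115941861-115942061: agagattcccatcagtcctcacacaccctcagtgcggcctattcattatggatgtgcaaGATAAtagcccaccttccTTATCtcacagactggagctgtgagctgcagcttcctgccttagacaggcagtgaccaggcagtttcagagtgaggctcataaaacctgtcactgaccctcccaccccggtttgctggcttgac

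Sox6 +488 kb, chr7:115550564-115550764: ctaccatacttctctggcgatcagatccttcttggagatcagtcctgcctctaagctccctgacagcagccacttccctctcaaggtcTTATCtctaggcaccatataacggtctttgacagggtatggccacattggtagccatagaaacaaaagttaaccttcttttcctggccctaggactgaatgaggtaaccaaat

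Chd4 +8.46 kb, chr6:125104337-125104537: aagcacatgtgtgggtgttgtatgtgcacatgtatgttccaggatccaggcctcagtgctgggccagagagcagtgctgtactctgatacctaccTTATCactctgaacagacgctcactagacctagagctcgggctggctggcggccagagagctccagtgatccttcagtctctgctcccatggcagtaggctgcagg

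Myb -35.8 kb, chr10:21196685-21196885: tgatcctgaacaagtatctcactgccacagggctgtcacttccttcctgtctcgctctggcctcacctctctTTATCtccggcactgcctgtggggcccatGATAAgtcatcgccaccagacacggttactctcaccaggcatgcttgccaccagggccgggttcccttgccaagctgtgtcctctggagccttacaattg

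Hbs1l -27.1 kb, chr10:21268819-21269019: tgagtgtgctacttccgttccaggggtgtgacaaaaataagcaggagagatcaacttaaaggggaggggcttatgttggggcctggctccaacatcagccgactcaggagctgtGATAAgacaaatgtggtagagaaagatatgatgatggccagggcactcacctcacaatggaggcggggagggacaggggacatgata

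7 of these 8 cores held GATAA and the core at +69.9 kb of Bcl11a held none. The 8 cores were picked and do not stand for all sites of the 7 genes. Of the sites of both replicates over 1 kb from any start site, 15 of 23 (65.2%) at these genes held GATAA. The share over all such sites of the genome was 45.8%. Sox6 contributed 9 of the 15, and the sites of the other 6 genes held GATAA at 6 of 13. At +96.8 kb of Sox6 and at -35.8 kb of Myb, 2 matches stood on opposite strands.

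The enrichment used throughout is the authors' deposited fold of a summit over background, read from lists of intervals thresholded on the irreproducible discovery rate (the thresholded lists, 17777 intervals in replicate 1 and 18837 in replicate 2) and from longer, less strict pseudoreplicated lists (31830 and 33552 intervals). A replicated list made from both libraries held 43051 intervals. A site is a stretch of overlapping thresholded intervals, and a site of both replicates has an interval of each. The cell type label was set against marker genes: 10 of 11 erythroblast markers were open at the promoter in both replicates, against 41.4% of all protein-coding genes. Alas2, the first enzyme of erythroid heme synthesis, was open only in the less strict lists. The values of the open erythroblast markers ran from 3.28 in replicate 1 and 3.37 in replicate 2 at Hba-a1 to 9.48 and 9.62 at Epb42. In bulk chromatin, a site open in few cells and a site weakly open in all of them cannot be told apart. Of 25 markers of B, T and NK, myeloid, megakaryocyte, progenitor and liver cells, 1 was open, Itga2b, an integrin of megakaryocytes, at 7.71 in replicate 1 and 7.28 in replicate 2. Ebf1, of the B cell markers, and Gp9, of the megakaryocyte markers, were open only in the less strict lists, as Alas2 was.

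5 of the 7 genes were open, meaning that each replicate had a thresholded interval within 1 kb of a start site: Sox6, Zbtb7a, Chd4, Mbd2 and Hbs1l. Among all protein-coding genes 41.4% were open by the same rule. The order turned when only intervals at or above the median enrichment of each list were read: 1 of the 7 genes, Hbs1l, was then open, against 30% of all protein-coding genes. Bcl11a and Myb were not, although both had a promoter interval in the less strict list of each replicate, as did the other 5 genes, against 46.6% of all protein-coding genes. Intragenic sites of both replicates were found in 4 of the 7 genes, Sox6, Bcl11a, Chd4 and Myb, against 11.3% of all protein-coding genes. That share is over genes of all lengths, and of 175 genes at least as long as Sox6, 36 had an intragenic site. Sites outside the gene were found for 6 of the 7 genes, the exception being Sox6, against 56.3% of all protein-coding genes.

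In all, 56 sites lay in the 7 windows, of which 44 were found in both replicates, 4 in replicate 1 alone and 8 in replicate 2 alone. Of the 12 sites of 1 replicate, 9 had an interval in the other replicate's less strict list. The 44 sites divided into 9 promoter, 14 intragenic and 21 outside sites, and 9 of the outside sites lay over 1 kb from any annotated start site of any gene. The summits of a shared site were at most 47 bp apart between replicates, and the median of the mean enrichment over the 44 sites was 6.83. Windows of the 7 genes held 3 to 13 shared sites each, against a median of 2 and a mean of 2.47 over all protein-coding genes. Window length differs between genes, and per 100 kb of window the 7 genes had 1.53 to 6.79 shared sites, against a median of 0.976 and a mean of 1.97 over all protein-coding genes. All 7 were above that median, while Bcl11a at 1.53, Hbs1l at 1.73 and Sox6 at 1.95 were below that mean.

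**Figure D1:**
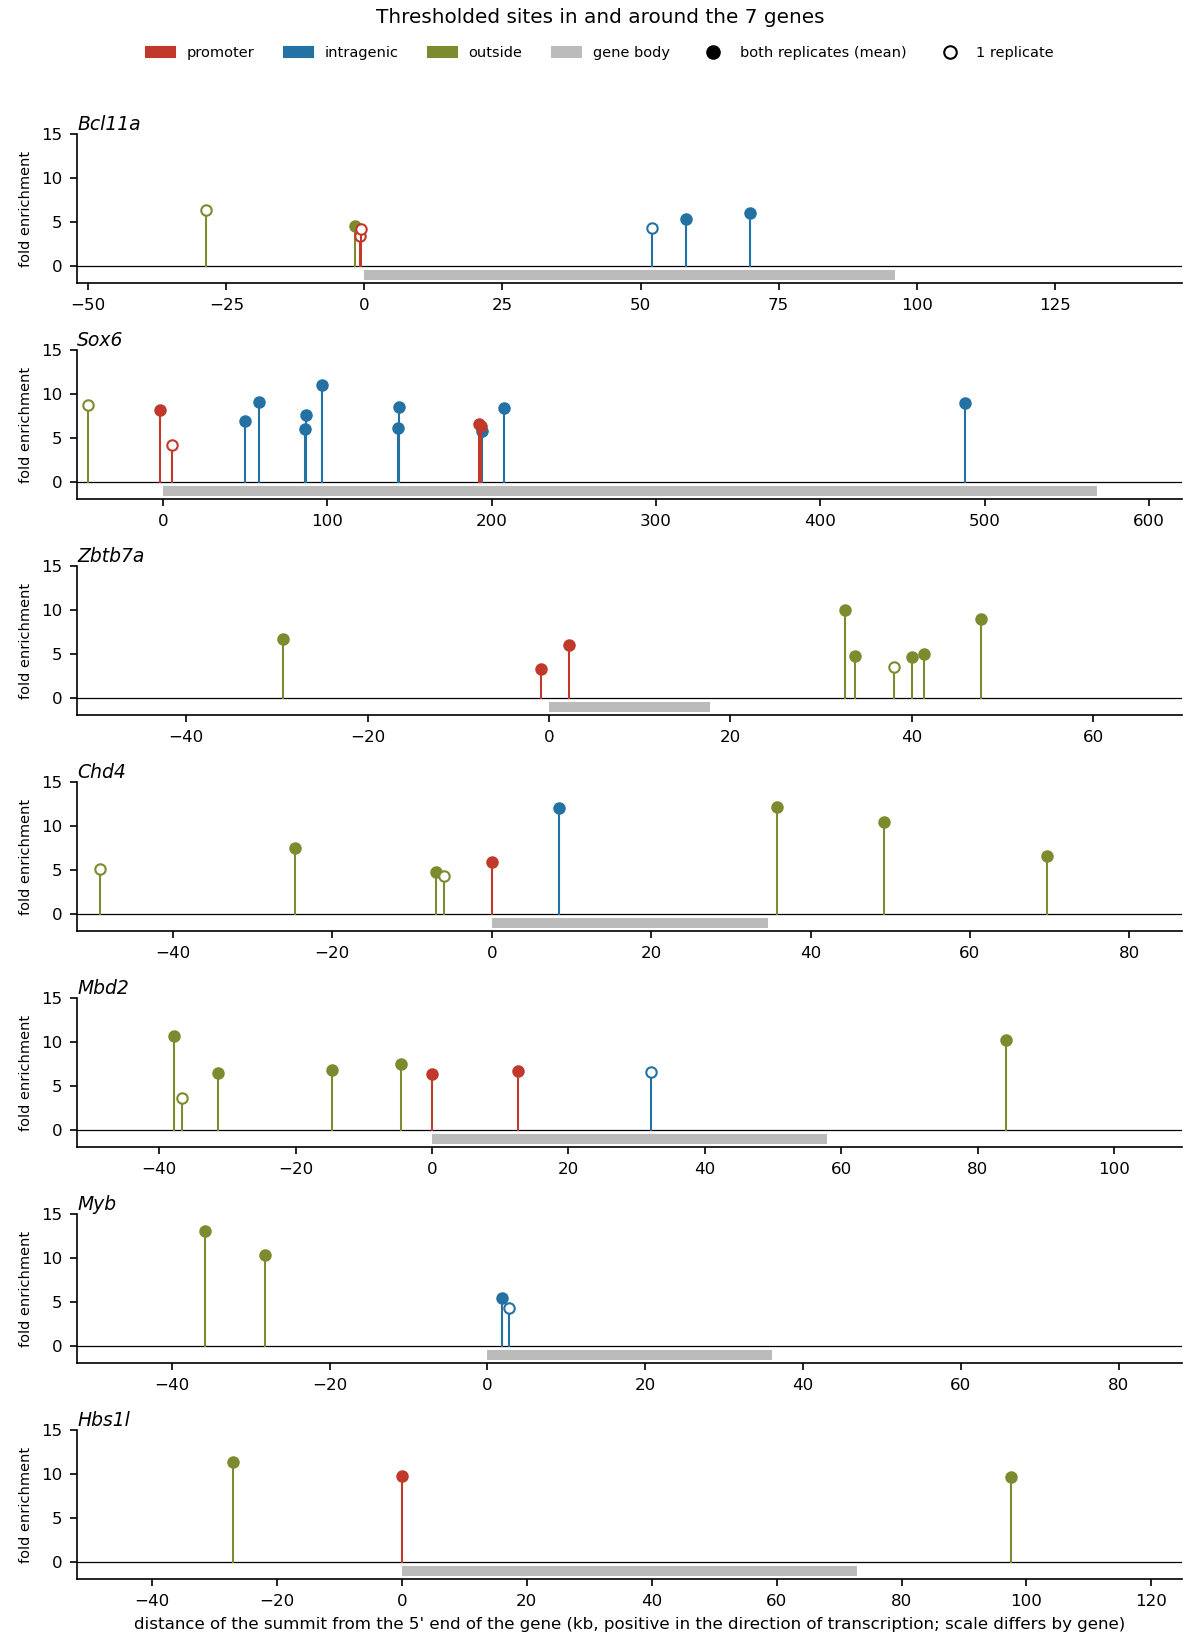
Thresholded sites in the gene body and the 50 kb on either side of each of the 7 genes. The horizontal axis is the distance of the summit from the 5′ end in kb, on a scale that differs by gene, and the vertical axis is the authors' fold enrichment. Filled points are the mean of both replicates, open points the value of the single replicate with the site, and grey bars the gene bodies. Sox6 carries 10 shared intragenic sites, whereas those of Zbtb7a, Mbd2 and Hbs1l number 0.

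**Figure D2:**
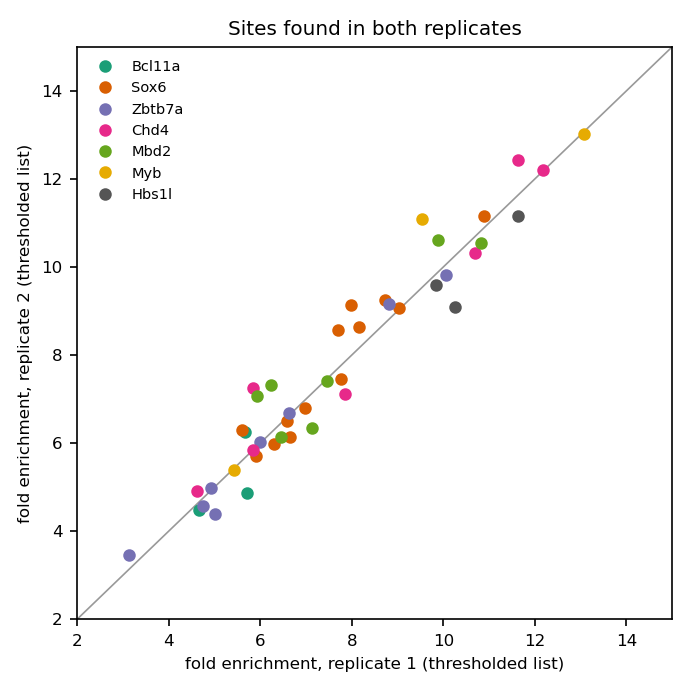
Enrichment of the 44 shared sites in replicate 1 (horizontal axis) and replicate 2 (vertical axis), colored by gene, with the line of equal values. The points lie along the line from the Zbtb7a promoter at 3.14 and 3.46 to the Myb site at -35.8 kb, with 13.1 and 13.0.

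Sox6 (chr7:115470872-116038796, minus strand, 568 kb) had the most sites of the 7 genes. Its 13 shared sites comprised 3 promoter and 10 intragenic sites, and 6 of 21938 protein-coding genes (0.0273%) had 10 or more intragenic sites. Genes differ in length, and of 175 genes at least as long as Sox6, 36 had an intragenic site, the median was 0, and 4, Sox6 included, had 10 or more. Per 100 kb of window Sox6 had 1.95 shared sites, a density that 35.9% of protein-coding genes reached or exceeded.

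The intragenic sites of Sox6 lay in introns 1, 2 and 10 of the transcript Sox6-201. The site in intron 2 at +96.8 kb had an enrichment of 10.9 in replicate 1 and 11.2 in replicate 2 (mean 11.03 ± 0.188, SD, n = 2), among the top 19.6% and 17.7% of the thresholded lists. The site in intron 1 at +58.8 kb followed at 9.04 in replicate 1 and 9.06 in replicate 2, and the site in intron 10 at +488 kb had 8.74 in replicate 1 and 9.26 in replicate 2. The intron 10 site lay alone, 280.4 kb beyond the next shared site at +208 kb, whereas the other 9 intragenic sites fell between +50.2 and +208 kb. Neighboring intragenic sites less than 1 kb apart stood at +86.4 and +86.9 kb and at +142.8 and +143.6 kb.

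The Sox6 promoter site of highest enrichment had its summit at -1.6 kb, with 7.70 in replicate 1 and 8.57 in replicate 2 (mean 8.14 ± 0.614). The nearest annotated start of Sox6, 854 bp away, is that of Sox6-214, annotated as a retained intron transcript. No shared site lay within 1 kb of the start of Sox6-201, and the nearest, at +50.2 kb, was 6230 bp away. The site at -1.6 kb is also within 1 kb of the start of 1110004F10Rik, which is transcribed away from Sox6 and whose body holds the site. Position alone thus does not assign the site to either gene. A further pair of promoter sites lay at the internal start of the coding transcript Sox6-203, at +192.6 kb with 6.58 in replicate 1 and 6.49 in replicate 2 and at +193.7 kb with 6.65 in replicate 1 and 6.13 in replicate 2. GATAA stood within 100 bp of the summit at 11 of the 13 shared Sox6 sites, all but the site at -1.6 kb and the site at +194.2 kb.

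Bcl11a (chr11:24078056-24174123, plus strand, 96.1 kb) had no thresholded promoter interval in replicate 1. In replicate 2 the promoter interval of highest enrichment was at -0.535 kb with 4.22, and a weaker interval at -0.8 kb had 3.39. Both intervals also lay within 1 kb of a start site of the neighboring gene Gm12063, so position alone does not assign them to Bcl11a. Replicate 1 had both in its less strict list, with 3.36 and 3.09. The promoter values were thus low in both libraries, and the higher of the replicate 2 intervals ranked 17506 of 18837 in the thresholded list.

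Bcl11a was open within intron 2 of Bcl11a-202, the intron known in human and mouse erythroid cells for an enhancer of the gene. At +69.9 kb the enrichment was 5.66 in replicate 1 and 6.26 in replicate 2 (mean 5.96 ± 0.42). At +58.2 kb it was 5.72 in replicate 1 and 4.87 in replicate 2 (mean 5.29 ± 0.599). The sites cannot be ordered beyond the spread of the replicates: the site at +58.2 kb was the higher by 0.0569 in replicate 1 and the lower in replicate 2. A further site at +52 kb was thresholded in replicate 1 alone, at 4.28, and stood in the less strict list of replicate 2.

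Outside the Bcl11a gene body, a shared site at -1.62 kb had 4.67 in replicate 1 and 4.47 in replicate 2, and lay within 1 kb of the start site of Gm12063, an annotated long noncoding RNA, rather than of Bcl11a. Another at -28.7 kb was thresholded in replicate 1 alone at 6.38. With 3 shared sites, as many as Myb and Hbs1l had, Bcl11a was reached or exceeded by 38.3% of protein-coding genes, and with its 2 intragenic sites by 3.77%. The count rests on both libraries: without replicate 1 it was 5, and without replicate 2 it was also 5.

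Zbtb7a (chr10:81135220-81152995, plus strand, 17.8 kb) had 8 shared sites, none intragenic by the placement used. Its promoter site of highest enrichment lay at +2.22 kb, over the start of the coding transcript Zbtb7a-202 in intron 1 of Zbtb7a-201, with 5.98 in replicate 1 and 6.04 in replicate 2 (mean 6.01 ± 0.0359). The site before the first start of the gene, at -0.877 kb, was lower, with 3.14 in replicate 1 and 3.46 in replicate 2 (mean 3.30 ± 0.224). The difference between these promoter sites held in both libraries and exceeded their replicate SDs.

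Most outside sites of Zbtb7a lay at starts of neighboring genes. The highest 3 stood at starts of Pias4, a SUMO ligase (10.1 in replicate 1 and 9.83 in replicate 2), of Dapk3, a kinase (8.82 and 9.17), and of Map2k2, a kinase of the ERK cascade (6.63 and 6.69). Of the 6 outside sites, 1 lay over 1 kb from any start site, at +40 kb near the translation factor gene Eef2, with 4.76 in replicate 1 and 4.57 in replicate 2. Among the 8 shared sites 1 held GATAA, the internal promoter site.

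Chd4 (chr6:125095981-125130591, plus strand, 34.6 kb) had 7 shared sites. The promoter site stood over exon 1 with 5.84 in replicate 1 and 5.85 in replicate 2 (mean 5.84 ± 0.00448). The single intragenic site, in intron 10 of Chd4-201 at +8.46 kb, was higher, with 11.6 in replicate 1 and 12.4 in replicate 2 (mean 12.0 ± 0.564), among the top 14.4% and 10.2% of the lists. It lay 7.49 kb from the nearest annotated start of Chd4, held GATAA once, and is printed above. The outside sites of highest enrichment were at starts of neighbors: the ribosome assembly gene Nop2 with 12.2 in each replicate, Iffo1 with 10.7 and 10.3, and Lpar5, a lysophosphatidic acid receptor, with 7.86 and 7.10.

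Upstream of Chd4 a shared site stood at -6.95 kb with 4.61 in replicate 1 and 4.91 in replicate 2, and a site at -6 kb was thresholded in replicate 2 alone at 4.34 and less strict in replicate 1. These upstream sites and the promoter site carry a repeated sequence. In human and mouse cells ZNF410, whose mouse gene is Zfp410, is known to bind clustered copies of its motif near CHD4. CCCATAATA, a part of that motif, was searched on both strands in whole sites, with overlapping matches allowed; it contains none of the other motifs searched here. The stretches with most matches upstream of the gene are shown on the plus strand of GRCm38.p6, credited to RefSeq, with matches in capitals as TATTATGGG, the reverse complement.

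Chd4 upstream site of both replicates, chr6:125089014-125089200: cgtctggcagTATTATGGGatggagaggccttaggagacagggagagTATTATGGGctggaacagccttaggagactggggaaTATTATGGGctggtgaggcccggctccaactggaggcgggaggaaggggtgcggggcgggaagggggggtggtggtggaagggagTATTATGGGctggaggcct

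Chd4 upstream site of replicate 2, chr6:125089907-125090062: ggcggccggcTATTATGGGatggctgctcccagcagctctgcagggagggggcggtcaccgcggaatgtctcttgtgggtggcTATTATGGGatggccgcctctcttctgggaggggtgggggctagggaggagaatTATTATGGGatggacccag

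Chd4 promoter, chr6:125095612-125095803: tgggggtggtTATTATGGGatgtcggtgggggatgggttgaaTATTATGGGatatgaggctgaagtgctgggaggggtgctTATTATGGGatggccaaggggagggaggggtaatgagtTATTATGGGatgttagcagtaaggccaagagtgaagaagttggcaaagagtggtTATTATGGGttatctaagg

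The promoter site held 8 matches, of which the stretch shown has 5, the site at -6.95 kb held 4 and the site at -6 kb held 3. All 15 were on the minus strand, opposite to the direction of Chd4. Among 20170 thresholded sites of the genome, those of 1 replicate included, 40 (0.198%) held a match, and the 3 sites at Chd4 were the sites with 2 or more. The whole Chd4 window held 22 matches of 16189 in the genome sequence searched. The matches are letters in open DNA, and binding was not measured.

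**Figure D3:**
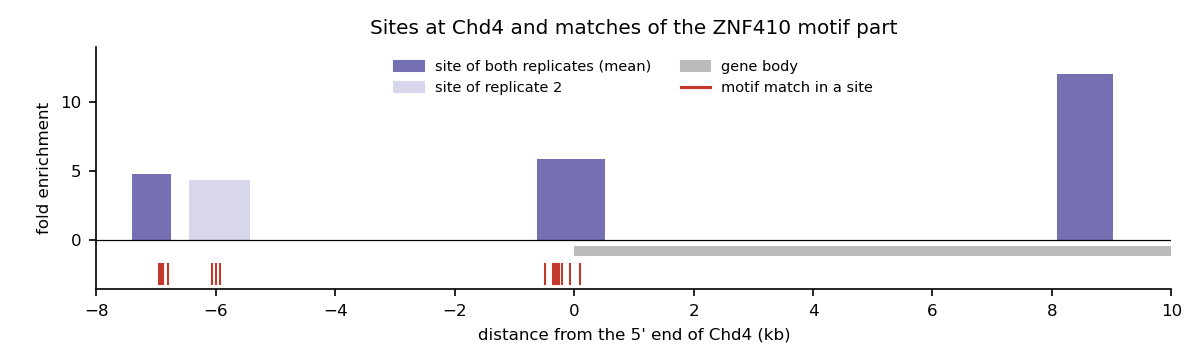
Thresholded sites near the 5′ end of Chd4 (blocks, height is the authors' fold enrichment, pale block in replicate 2 alone) and matches of CCCATAATA within them (red ticks). The horizontal axis is the distance from the 5′ end in kb. The matches fall in the promoter site (8) and in the upstream sites (4 and 3), and the intron site at +8.46 kb, the highest block, has 0.

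Mbd2 (chr18:70568189-70626131, plus strand, 57.9 kb) had 7 shared sites. The promoter interval of highest enrichment was at the start of the internal transcript Mbd2-203 at +12.7 kb, with 7.13 in replicate 1 and 6.34 in replicate 2 (mean 6.73 ± 0.56). Mbd2-203 is annotated as a nonsense-mediated decay transcript, and its start lies in intron 2 of Mbd2-201. At the 5′ end of the gene the site had 6.46 in replicate 1 and 6.14 in replicate 2 (mean 6.30 ± 0.226). The internal site was the higher in each replicate, and the means differ by less than its SD.

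The sites of highest enrichment around Mbd2 were outside it. At the start of the polymerase gene Poli the values were 10.8 in replicate 1 and 10.6 in replicate 2, and at +84.2 kb, beyond the 3′ end and far from any start site, they were 9.88 in replicate 1 and 10.6 in replicate 2 (mean 10.3 ± 0.518). A site at -4.58 kb had 7.45 in replicate 1 and 7.42 in replicate 2. The site at -14.7 kb had 4 GATAA matches, more than any other of the 44 shared sites, at an enrichment of 6.24 in replicate 1 and 7.31 in replicate 2. An intron 3 interval at +32.1 kb was thresholded in replicate 2 alone at 6.61. Of the 5 outside sites, 4 were over 1 kb from any start site, the most of the 7 genes.

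The other genes of NuRD were read from a list of 15 subunits and partners that includes Chd4 and Mbd2. Of these, 11 (73.3%) were open, against the 41.4% of all protein-coding genes given above. The open members of highest mean promoter enrichment were the histone-binding subunit Rbbp7 with 13.96 in replicate 1 and 15.04 in replicate 2 (mean 14.5 ± 0.765), and the scaffold subunits Gatad2b with 12.5 and 12.7 (mean 12.6 ± 0.163) and Gatad2a with 10.3 and 9.92 (mean 10.1 ± 0.296). The promoters of Chd4 and Mbd2 were lower than these in both replicates. Chd3 and Chd5, the remodelers that can stand in the place of Chd4, were not open, nor were Mta1 and Cdk2ap1, of which Cdk2ap1 had a less strict promoter interval in each replicate.

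Of 20 other genes tied to globin switching, 15 (75%) were open (11 by the gene's 5′ end alone), against the same 41.4% (38.4%). The highest were the arginine methyltransferase Prmt5 with 12.7 in replicate 1 and 12.6 in replicate 2, the nuclear receptor Nr2c2 (TR4), a partner of the complex that binds direct repeats in globin promoters, with 12.1 and 11.5, and the histone methyltransferase Ehmt1 with 10.99 and 11.01. Not open were Hic2, a repressor of BCL11A in human fetal cells, Lin28b and Igf2bp1, RNA-binding proteins of fetal-type cells, Nr2c1 (TR2), and the Polycomb gene Bmi1. Of these, Hic2 had a less strict promoter interval in both replicates. Zfp410, named for its motif at Chd4, was open with 8.67 in replicate 1 and 7.46 in replicate 2.

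Myb (chr10:21124935-21160984, minus strand, 36.1 kb) had no thresholded promoter interval in either replicate. In the less strict lists the interval over its 5′ end had 3.65 in replicate 1 and 3.29 in replicate 2. The intron 1 site at +1.88 kb, in the intron known for a block to elongation of Myb transcripts, was thresholded in both libraries, with 5.42 in replicate 1 and 5.38 in replicate 2 (mean 5.40 ± 0.0271), and a site at +2.72 kb in replicate 2 alone at 4.24. The promoter values were thus lower than those of the intron site and of both upstream sites.

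Upstream of Myb the site at -35.8 kb had the highest enrichment of all 44 shared sites, 13.1 in replicate 1 and 13.0 in replicate 2 (mean 13.1 ± 0.0363). It ranked 1291 of 17777 in replicate 1 and 1422 of 18837 in replicate 2, among the top 7.26% and 7.55%. The site at -28.2 kb had 9.53 in replicate 1 and 11.1 in replicate 2 (mean 10.3 ± 1.11) and lies within 1 kb of the start site of Gm40608, an annotated long noncoding RNA.

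Hbs1l (chr10:21295979-21368898, plus strand, 72.9 kb) had 3 shared sites, none of them intragenic by the placement used. Its promoter had 9.84 in replicate 1 and 9.60 in replicate 2 (mean 9.72 ± 0.171), the highest promoter of the 7 genes. Outside, the site at -27.1 kb had 11.6 in replicate 1 and 11.2 in replicate 2 (mean 11.4 ± 0.329), and the site at +97.6 kb had 10.3 in replicate 1 and 9.10 in replicate 2 (mean 9.68 ± 0.825). The median of the mean enrichment over shared sites was 9.72 for Hbs1l and 10.3 for Myb, against 5.29 to 7.60 for the other 5 genes.

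Myb and Hbs1l are transcribed away from each other, and the interval between their 5′ ends (chr10:21160985-21295978) spans 135 kb, of which the middle 35 kb belong to neither 50 kb window. The interval held 5 shared sites: at 28.2, 35.8, 67.7 and 107.9 kb upstream of Myb, and at the start of Hbs1l. No thresholded site of 1 replicate alone lay there. The site in the middle, which the windows of both genes leave out, had 10.3 in replicate 1 and 11.1 in replicate 2 (mean 10.7 ± 0.571). All 5 sites were above the median of the thresholded list in both replicates, which was 7.83 in replicate 1 and 7.74 in replicate 2, whereas sites below it in both numbered 7 of 13 at Sox6, 3 of 3 at Bcl11a, 6 of 8 at Zbtb7a, 5 of 7 at Mbd2 and 3 of 7 at Chd4.

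The middle site is shown because it differs in sequence from its neighbors: it held no GATAA within 100 bp of its summit but 5 copies of CANNTG, the E-box core bound by basic helix-loop-helix factors such as Tal1, in capitals here on the plus strand of GRCm38.p6 (RefSeq).

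Myb -67.7 kb, chr10:21228610-21228810: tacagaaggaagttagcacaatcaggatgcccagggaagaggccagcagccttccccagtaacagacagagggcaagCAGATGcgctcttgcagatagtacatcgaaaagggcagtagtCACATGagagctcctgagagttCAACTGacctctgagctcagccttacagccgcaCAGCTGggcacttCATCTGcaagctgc

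GATAA was found at 28.2, 35.8 and 107.9 kb upstream of Myb, with 1, 2 and 1 matches. Each of these sites held 1 CANNTG, against 5 at the middle site. The less strict lists added weaker intervals, most of them between 80 and 100 kb upstream of Myb: they held 11 intervals in replicate 1 and 12 in replicate 2, which merge to 13 sites, 9 of them of both replicates. The replicated list held 15.

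**Figure D4:**
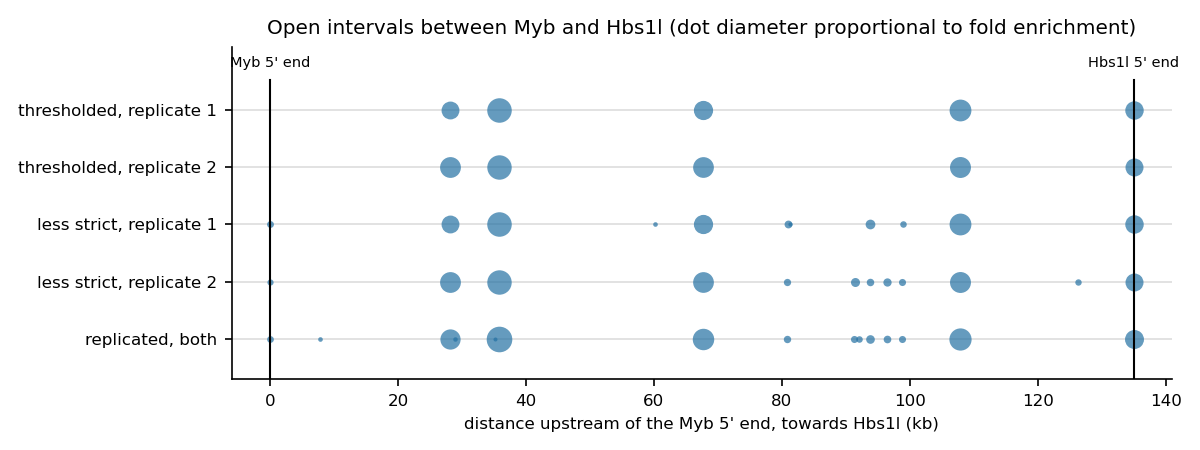
Intervals between the 5′ ends of Myb and Hbs1l in 5 peak lists, by distance upstream of Myb in kb. Each dot is an interval, with a diameter proportional to the authors' fold enrichment. The 5 thresholded sites recur as the large dots of every list, and the intervals that the less strict lists add are small.

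GATAA stood within 100 bp of the summit at 15 of the 23 shared sites of the 7 genes that lay over 1 kb from any start site (65.2%), against 45.8% of the 6105 such sites of the genome. Sox6 contributed 9 of the 15, so the share is mostly that of a single gene: its distal sites numbered 10, and those of the other 6 genes held GATAA at 6 of 13. At the 21 sites near a start site, 6 held it (28.6%), against 13.6% of 9905 such sites of the genome. Other motifs were sought in the same windows on both strands. At the distal sites CANNTG stood at 15 of 23 (65.2%), against 72.2% in the genome, and CCNCNCCC, read by KLF and SP factors, at 4 of 23 (17.4%), against 31.5%. TGTGGT, the RUNX core, stood at 6 of 23 (26.1%), against 18.3%, TGANTCA, of AP-1 and NFE2, at 3 of 23, against 11.4%, and AGGNGGC, a part of the CTCF motif, at 4 of 23 (17.4%), against 26.5%. TAACNG, the core of Myb itself, stood at 4 of 23 (17.4%), against 21%, AACAAT, of SOX factors, at 2 of 23, against 3.54%, and TGACCA, the core of BCL11A, at 3 of 23, against 11.9%. Some of these motifs can overlap by letters, such as GATAA with TAACNG, CCNCNCCC with AGGNGGC and TGTGGT with TGACCA. Sites of a gene also share its sequence surroundings, so these shares are descriptions.

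**Figure D5:**
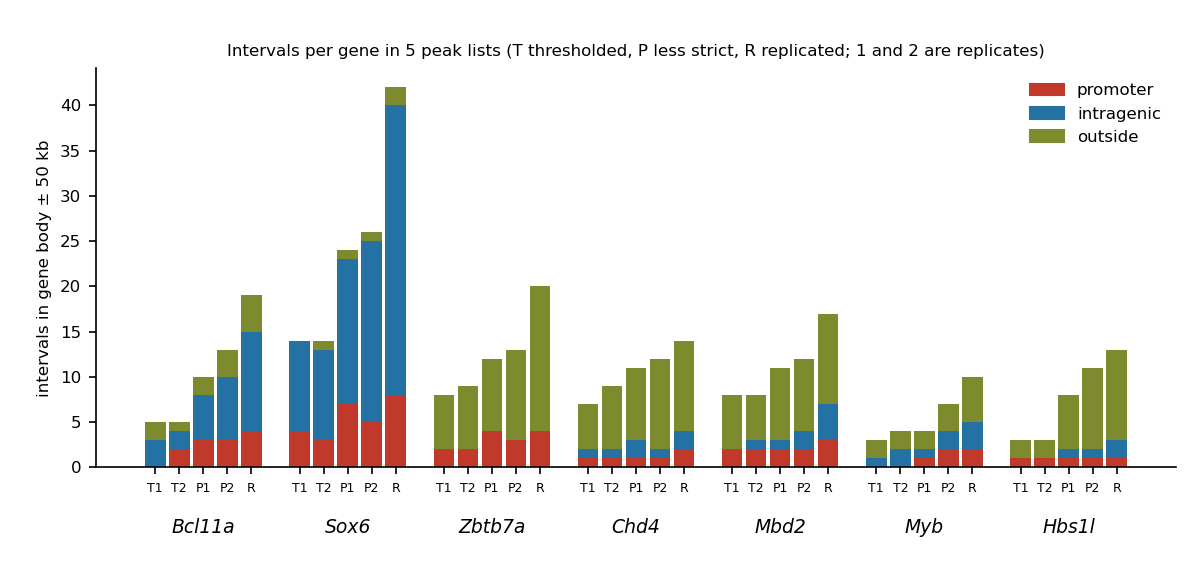
Intervals per gene in the thresholded lists (T), the less strict lists (P) and the replicated list (R), with 1 and 2 for the replicates, stacked as promoter, intragenic and outside. Sox6 has most in every list, 14 in each thresholded list and 42 in the replicated list, and its intervals are mainly intragenic, while those of Zbtb7a, Chd4, Mbd2 and Hbs1l are mainly outside.

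The thresholded lists held 48 intervals of replicate 1 and 52 of replicate 2 in the 7 windows, the less strict lists 80 and 94, and the replicated list 135. Sox6 gained most, with 24 and 26 intervals in the less strict lists and 42 in the replicated list, of which 32 were intragenic. Bcl11a had 5 in each thresholded list, 10 and 13 in the less strict lists and 19 in the replicated list, with 11 of them intragenic. Zbtb7a had no intragenic interval in any of the 5 lists.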

How the data were processed

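ATAC-seq peak lists of 2 erythroblast replicates in mm10 coordinates were used, per the labels. The sources used here name no library preparation, aligner or peak caller. In the deposited lists, enrichment is a summit's fold over background and significance is the −log10 p of the authors' peak caller. No step that makes either comparable between lists is given, so the mean and SD over replicates are descriptions.

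Distinct intervals on chromosomes 1 to 19, X and Y were read with Python 3.11.15 and plotted with matplotlib 3.10.9. Intervals were merged into sites at an overlap of at least 1 bp. The strongest summit of replicate 1 centered motif windows of 100 bp to each side, sought on both strands in GRCm38.p6. Of 237847 intervals, 0 ran beyond their chromosome's end. The interval and motif code was checked on simulated data.

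The sites named were, for each gene, the promoter interval of highest enrichment, the 3 intragenic and 3 outside sites of highest mean enrichment, all sites between Myb and Hbs1l, and sites with 3 or more CCCATAATA matches. Of the NuRD and switching lists, the 3 open genes of highest enrichment and all genes not open were named. Zfp410 and other sites and genes were added after their values were seen. The members, lists and motifs were chosen with earlier results of these data known.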

Additional observations from a re-analysis of the deposited data

How the results depend on the processing

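The number of the 7 genes called open was 5 in the main reading. It was 7 with start sites reaching 2 kb, with the less strict lists and with the series-level replicated, thresholded and conservative lists. At these settings 42.4% to 50.7% of all protein-coding genes were open. The number was 5 with start sites reaching 500 bp (40.6% of all) or with the 5′ end of the gene alone (38.4%). Open genes of the switching list were then 13 and 11 of 20, and of NuRD 11 of 15 at both settings. With intervals at or above each list's median enrichment, 1 of the 7 genes was open, Hbs1l, below the 30% of all protein-coding genes. The open genes of NuRD were then 7 of 15 and of the switching list 8 of 20. Shared sites of the 7 genes numbered 44, against 71 in the less strict lists, 135 in the series-level replicated list, 72 in the series-level thresholded list, 70 in the conservative list and 17 at or above the median enrichment. The Myb to Hbs1l interval held 5 sites, against 9, 15, 8 and 9 in those 4 kinds of longer list. Without replicate 1, 6 of the 7 genes were open (Bcl11a joined), against 42.8% of all protein-coding genes. Without replicate 2, 5 were open, against 42.2%. Leaving out each replicate gave 48 to 52 sites, 5 sites in the interval, 11 open NuRD genes and 15 open switching genes. GATAA was found at 21 of the 44 sites within 100 bp of the summit, at 21 within 150 bp and at 27 in the whole site, the last 2 settings having been chosen after seeing the data. Of 58 alternatives to these counts, 46 stayed within 1.5 times the main count and 12 did not, and of 77 alternatives to the site counts of single genes 45 did and 32 did not. With a 25 kb flank Myb had 1 site against 3 and Mbd2 4 against 7, and with a 100 kb flank Zbtb7a had 13 against 8, Chd4 12 against 7 and Hbs1l 5 against 3. The causes were not tested. No paired analysis was possible because there is 1 group. The lists give no depth, so a place outside the lists is not shown to be closed.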
